A study of Mus musculus with 6 samples.

Results

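The KMT2 histone methyltransferases and their complex partners were followed here in mouse hippocampus as a set of 10 genes. These were the 10 rows whose gene name in the authors' TPM table is Kmt2a, Kmt2c, Kmt2d, Kmt2e, Setd1a, Setd1b, Wdr5, Ash2l, Rbbp5 or Dpy30, joined to the count table by gene identifier, out of 55411 rows with an Ensembl identifier. The names fixed the choice, not the measured values, although earlier results of these data were known when the set was drawn up. Of the 10 genes, 9 passed the filter on low counts and were tested among 16129 genes. The sixth gene with a SET domain, Setd1a, had 8 counts in all 6 libraries together and was not tested.

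Poly(A)-selected, strand-preserving RNA libraries were compared between 3 hippocampi of the clothianidin (CLO) group and 3 of the vehicle control group. Clothianidin is a neonicotinoid insecticide, given at 50 mg/kg/day to male C57BL/6N mice, and the protocol in the labels says that the hippocampi came from offspring. The labels give no sex, age, litter, sire or batch, so common parents or preparation are unknown and each p-value reflects only how far these 6 libraries vary. CLO libraries held 19502748 to 21041621 counts in annotated genes and control libraries 25053948 to 26603386, and each CLO library was the shallower. All 5 listed markers of CA1 neurons and all 5 of dentate granule cells were detected, with summed levels of 752 to 756 CPM in CLO and 650 to 771 CPM in control for CA1, and 334 to 399 CPM in CLO and 272 to 416 CPM in control for the dentate gyrus. CPM values were computed here from counts and TMM-scaled library totals.

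Enzymes of the KMT2 family place methyl groups on lysine 4 of histone H3 (H3K4), a mark of active promoters and enhancers. Their catalytic unit is the SET domain, which is weak alone and works with a core of WDR5, RBBP5, ASH2L and DPY30 that all complexes of the family share. KMT2A acts mainly at promoters of developmental genes, KMT2C and KMT2D at enhancers, and SETD1A and SETD1B give most of the trimethylation at promoters. KMT2E carries a SET domain without known methyltransferase activity and binds trimethylated H3K4 through its PHD finger. In mice, loss of Kmt2a or Kmt2b from forebrain neurons impairs memory.

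Unmethylated CG dinucleotides, which are dense in many promoters, are the sites that the CXXC domain of KMT2A binds. RefSeq start sites on GRCm38.p6, a build other than that of the counts, were matched for 7 of the 10 genes, and the window was the 250 bases before the start. The windows of the 3 matched genes that stood lower in CLO and of the 3 matched core subunits are shown 5′ to 3′ along the gene's strand, with each CG in capitals. Of the 4 start sites of Dpy30, those with the fewest and the most CG are shown, because 3 of the 4 windows overlap.
Kmt2a (minus strand, chr9:44881290-44881539): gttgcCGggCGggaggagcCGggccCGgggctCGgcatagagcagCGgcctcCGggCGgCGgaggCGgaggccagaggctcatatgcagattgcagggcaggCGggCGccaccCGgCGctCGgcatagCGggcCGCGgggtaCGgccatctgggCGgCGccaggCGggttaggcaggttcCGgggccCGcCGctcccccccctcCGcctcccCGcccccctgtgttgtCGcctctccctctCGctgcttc
Kmt2c (minus strand, chr5:25498784-25499033): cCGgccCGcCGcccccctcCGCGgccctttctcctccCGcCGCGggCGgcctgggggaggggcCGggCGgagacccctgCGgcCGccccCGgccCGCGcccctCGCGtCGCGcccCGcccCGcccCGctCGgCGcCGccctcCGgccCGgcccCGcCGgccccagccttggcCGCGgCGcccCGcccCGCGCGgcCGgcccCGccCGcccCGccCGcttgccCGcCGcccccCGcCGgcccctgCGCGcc
Kmt2d (minus strand, chr15:98871206-98871455): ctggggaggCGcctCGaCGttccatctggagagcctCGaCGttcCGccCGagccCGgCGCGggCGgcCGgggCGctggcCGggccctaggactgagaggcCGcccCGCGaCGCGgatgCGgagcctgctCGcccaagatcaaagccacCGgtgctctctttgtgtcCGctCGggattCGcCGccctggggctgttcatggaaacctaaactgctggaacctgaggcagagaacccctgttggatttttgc
Wdr5 (plus strand, chr2:27514897-27515146): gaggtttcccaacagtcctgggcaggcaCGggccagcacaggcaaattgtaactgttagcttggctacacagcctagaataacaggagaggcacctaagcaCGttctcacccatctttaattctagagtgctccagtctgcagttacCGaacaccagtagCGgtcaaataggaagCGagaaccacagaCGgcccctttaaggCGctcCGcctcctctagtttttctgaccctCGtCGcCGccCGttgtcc
Rbbp5 (plus strand, chr1:132477117-132477366): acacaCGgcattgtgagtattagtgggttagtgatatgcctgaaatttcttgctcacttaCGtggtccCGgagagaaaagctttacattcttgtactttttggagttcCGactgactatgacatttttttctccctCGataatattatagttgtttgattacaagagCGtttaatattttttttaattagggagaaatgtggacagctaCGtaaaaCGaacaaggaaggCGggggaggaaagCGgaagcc
Dpy30, start site 1 (minus strand, chr17:74323945-74324194): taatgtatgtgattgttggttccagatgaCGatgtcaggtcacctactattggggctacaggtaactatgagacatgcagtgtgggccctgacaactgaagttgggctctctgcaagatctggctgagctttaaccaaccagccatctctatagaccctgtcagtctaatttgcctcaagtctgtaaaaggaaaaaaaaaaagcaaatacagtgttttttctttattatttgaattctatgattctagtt
Dpy30, start site 4 (minus strand, chr17:74316212-74316461): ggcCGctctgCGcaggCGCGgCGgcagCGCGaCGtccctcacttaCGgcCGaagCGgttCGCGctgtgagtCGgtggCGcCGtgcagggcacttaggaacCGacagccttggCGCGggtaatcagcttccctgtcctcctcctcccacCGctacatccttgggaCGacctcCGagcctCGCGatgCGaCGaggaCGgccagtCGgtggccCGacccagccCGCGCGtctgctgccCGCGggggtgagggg

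The Kmt2a window holds 29 CG dinucleotides, a number reached by 6.78% of the 32851 windows of this length in the table. The Kmt2c window holds 48, reached by 0.186% of windows, and 91.6% of its bases are G or C. The Kmt2d window holds 26 (reached by 9.59%), and that of Setd1a, not shown, 25 (reached by 10.7%). Among core subunits, the Wdr5 window holds 12 (reached by 33.5%) and the Rbbp5 window 10 (reached by 37.8%), where the median window has 6. The 4 windows of Dpy30 hold 1, 21, 28 and 34, and 28 and 34 are reached by 7.61% and 3.53% of windows. The CG number thus did not separate the SET-domain genes from the core. The motif CG reads the same on either strand and was counted without overlap.

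Per unit of length, the core subunits averaged above every SET-domain gene in CLO, and above every one except Kmt2e in control. On the authors' TPM scale, which divides counts by gene length and sets each library to the same total, Dpy30, the smallest core subunit, stood at 46.6 ± 0.698 TPM in CLO and 43.1 ± 5.28 TPM in control (SD, n = 3 each). Rbbp5 averaged 12.8 ± 2.67 TPM in CLO and 13.2 ± 1.54 TPM in control. Wdr5 averaged 13.2 ± 1.87 TPM in CLO and 13.0 ± 1.05 TPM in control. Dpy30 lay above every other gene in each library, while Rbbp5 and Wdr5 did not differ beyond their spread.

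Ash2l averaged 8.01 ± 0.815 TPM in CLO and 7.89 ± 0.240 TPM in control. Kmt2e was at 7.51 ± 2.63 TPM in CLO, below Wdr5 and Rbbp5, and at 14.4 ± 3.33 TPM in control, level with them within the spread. Kmt2d, Setd1b and Kmt2a averaged 3.60, 3.40 and 2.73 TPM in CLO and 6.47, 5.56 and 5.35 TPM in control, and within each group the SDs of these 3 genes overlapped. Kmt2c had the lowest level of the 9 tested genes, at 1.76 ± 0.704 TPM in CLO and 3.17 ± 0.570 TPM in control.

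**Figure D1:**
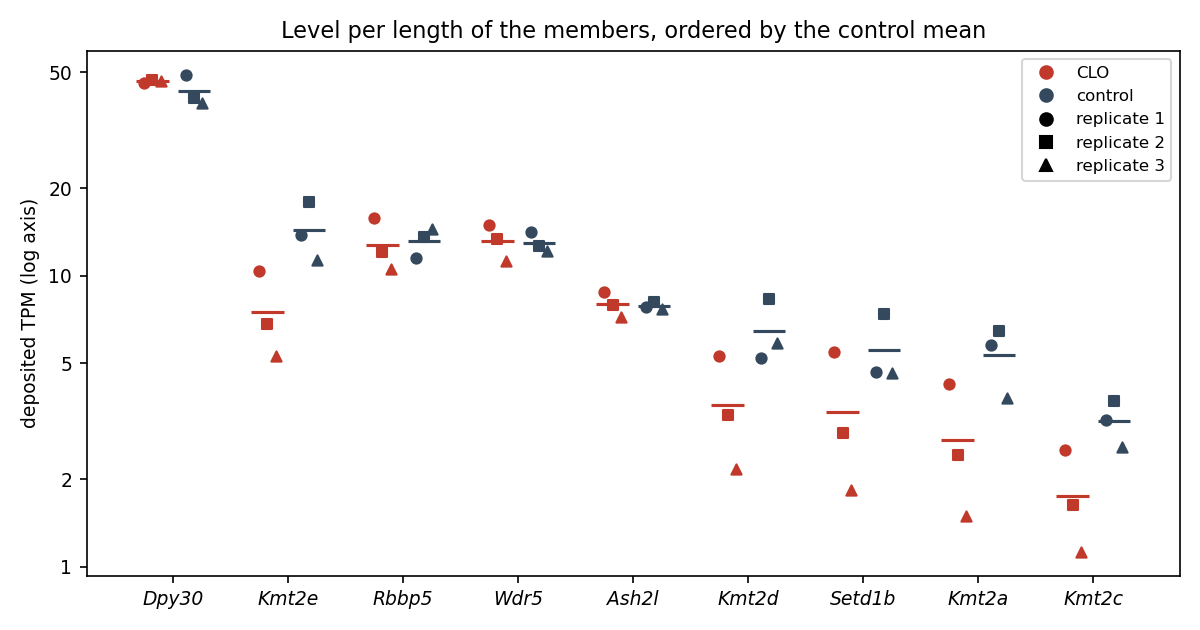
Deposited TPM (log axis) of the 9 tested genes in each CLO and control library, with a bar at each group mean and a marker shape per replicate. Dpy30 averages 46.6 TPM in CLO and 43.1 TPM in control, and Kmt2c has the lowest mean in each group.

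Setd1a could not be read in these data. Its counts were 0, 0 and 1 in CLO and 4, 1 and 2 in control, so that a group difference was not detectable at such counts. A count of 0 allows a level of up to 0.148 CPM in CLO replicate 1 and 0.147 CPM in CLO replicate 2 (3 counts, counting error only). That limit holds only if every read of the gene was counted. The gene lies on chromosome 7 from 127375842 to 127399294 (GRCm39, plus strand) and shares its strand with the gene model Gm49388, from 127384780 to 127402974, which had 0 counts in every library. How reads in such an overlap were counted is not given in the sources used here, so the low count sets no upper level for Setd1a. Kmt2a and Kmt2c also contain a same-strand gene model with 0 counts, and how reads there were counted is likewise unknown. These models are short beside the genes: Gm48314 has 2739 bp against 16670 bp for Kmt2a, and Gm20432 250 bp against 20342 bp for Kmt2c. Kmt2a had 4206 and Kmt2c 3130 counts over all libraries.

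The 5 SET-domain genes that could be tested all had lower values in CLO, at 0.539 to 0.640 times the control level, and the 4 core subunits did not. None of the 9 genes passed the adjusted threshold of 0.05 by edgeR's quasi-likelihood test, and 0.00% of all genes tested passed it. At an unadjusted p under 0.05 all 5 SET-domain genes were lower, where 7.26% of all genes tested were lower at that level. By DESeq2 1 of the 9, Kmt2e, passed as lower (adjusted p = 0.0154), against a background of 0.377% of genes. With no filter on low counts edgeR called all 5 lower, against 1.70% of 27303 genes. That fit tested 6 SET-domain genes, and Setd1a was not called. Its p-values for the 5 were smaller at nearly the same fold changes. For Kmt2a the unadjusted edgeR p was 7.18e-07 at a log2 fold change of -0.90, against 0.00521 at -0.89 with the filter.

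Kmt2e, the reader-like member, had 44.3, 34.8 and 29.1 CPM in CLO, against 59.4, 80.7 and 53.8 CPM in control. Every CLO library was below every control library. Its log2 fold change was -0.84 ± 0.20 (SE), 0.558 times the control level, with an adjusted p of 0.195 by edgeR. It lies on chromosome 5 from 23639439 to 23709233 (GRCm39), with an opposite-strand overlap with Srpk2 at its 3′ end.

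Kmt2c, an enhancer H3K4 methyltransferase, had 20.5, 15.8 and 11.9 CPM in CLO, against 26.3, 32.0 and 23.4 CPM in control. Its groups did not overlap either. The log2 fold change was -0.76 ± 0.21 (SE; edgeR adjusted p = 0.232), and by DESeq2 the adjusted p was 0.0512. The gene spans 25476796 to 25703781 on chromosome 5. Complete separation with CLO lower, seen for these 2 of the 5 SET-domain genes, held for 6.70% of all genes tested.

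Kmt2a, the founding member of the family, had 28.4, 19.4 and 12.9 CPM in CLO, against 38.8, 45.7 and 28.2 CPM in control. CLO replicate 1 lay just above control replicate 3, so the groups overlapped. Its log2 fold change, -0.89 ± 0.26 (SE), was the furthest from 0 of the 9, with an adjusted p of 0.247 by edgeR and 0.0519 by DESeq2. It lies on chromosome 9 from 44714652 to 44792594.

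Kmt2d, the enhancer enzyme paralogous to Kmt2c, had 44.6, 33.6 and 23.5 CPM in CLO, against 44.3, 74.0 and 55.0 CPM in control. CLO replicate 1 and control replicate 1 were level. The log2 fold change was -0.77 ± 0.24 (SE; edgeR adjusted p = 0.271). Its position is chromosome 15 from 98729550 to 98769085.

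Setd1b, a promoter H3K4 methyltransferase, had 26.3, 16.7 and 11.5 CPM in CLO, against 22.7, 37.6 and 25.0 CPM in control. CLO replicate 1 stood above 2 of the control libraries. Its log2 fold change of -0.64 ± 0.28 (SE; edgeR adjusted p = 0.356) was the closest to 0 of the 5. It lies on chromosome 5 from 123280256 to 123306692.

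**Figure D2:**
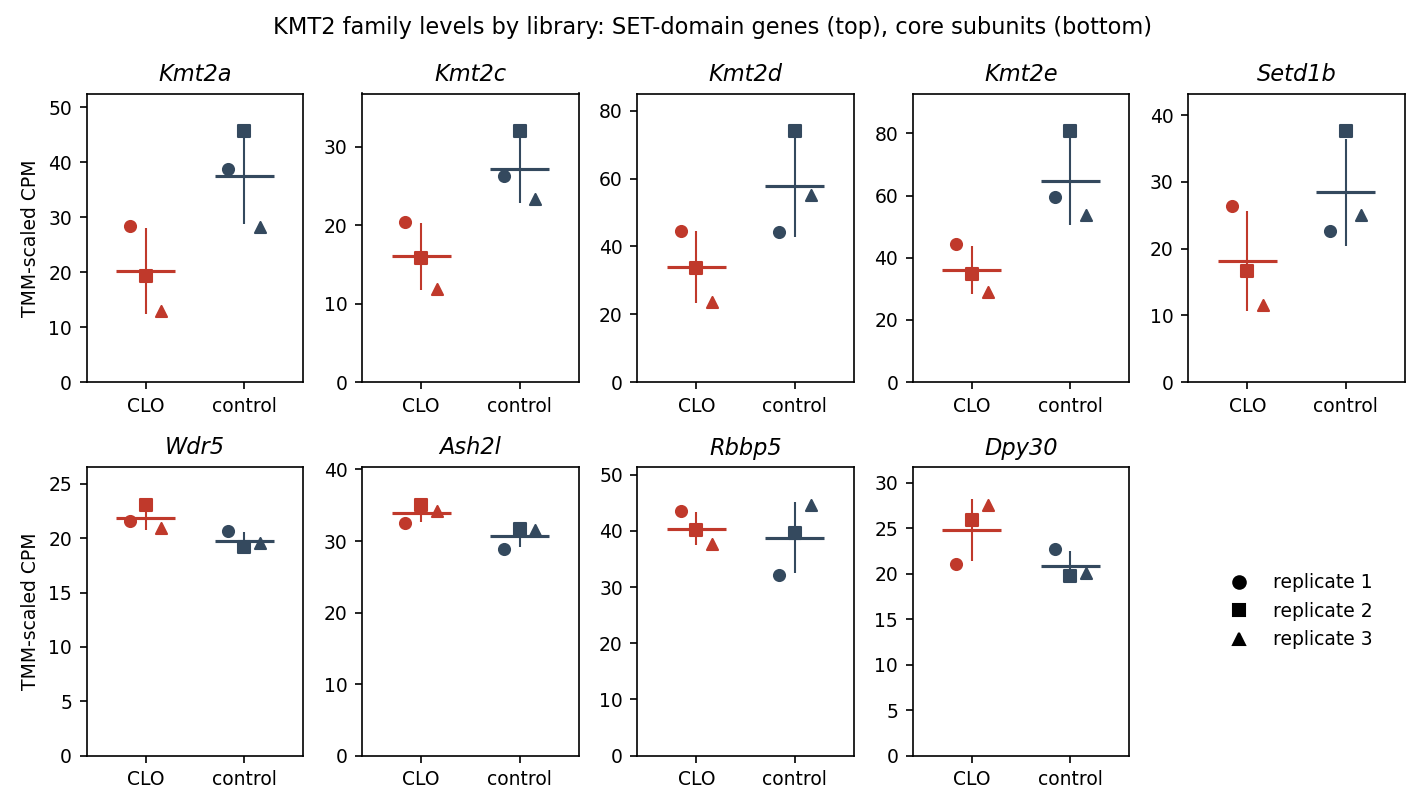
TMM-scaled CPM of the 5 tested SET-domain genes (top row) and the 4 core subunits (bottom row) in each library, with CLO left of control, a bar at the mean and a line for ± 1 SD (n = 3 each). CLO means lie at 16.1 to 36.1 CPM and control means at 27.3 to 64.6 CPM in the top row, whereas the bottom-row groups lie close together.

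In CPM all 4 core subunits had a mean above that of control in the CLO group, whereas in TPM Rbbp5 did not. At an unadjusted p under 0.05, 0 were past the level in either direction, where 6.18% of all genes were higher. Wdr5, the scaffold that reads the histone tail and holds the SET domain, had 21.6, 23.1 and 20.9 CPM in CLO, against 20.6, 19.2 and 19.5 CPM in control. Its log2 fold change was 0.14 ± 0.15 (SE; edgeR adjusted p = 0.657), with a 95% interval from -0.176 to 0.465. Ash2l, which with Rbbp5 activates the SET domain, had 32.5, 35.1 and 34.3 CPM in CLO, against 28.9, 31.7 and 31.5 CPM in control. Its log2 fold change was 0.14 ± 0.14 (SE; edgeR adjusted p = 0.642; 95% interval -0.161 to 0.450). For these 2 genes every CLO library was above every control library in CPM, which held for 7.84% of all genes tested. In TPM the groups overlapped for both.

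Rbbp5 had 43.5, 40.1 and 37.7 CPM in CLO, against 32.2, 39.6 and 44.7 CPM in control, and the CLO values lay within the control range. Its log2 fold change was 0.06 ± 0.16 (SE; edgeR adjusted p = 0.886; 95% interval -0.290 to 0.408). Dpy30, which binds Ash2l, had 21.0, 25.9 and 27.6 CPM in CLO, against 22.7, 19.8 and 20.1 CPM in control. Only CLO replicate 1 fell inside the control range, and the log2 fold change was 0.25 ± 0.16 (SE; edgeR adjusted p = 0.489; 95% interval -0.101 to 0.605). None of these intervals reaches as low as -0.64, the value of Setd1b. The 95% interval of Setd1b itself, -1.25 to -0.0384, overlaps each of the core intervals, however. That of Kmt2d, -1.29 to -0.246, overlaps the interval of Rbbp5, and those of Kmt2a, Kmt2c and Kmt2e overlap none. The subgroups were not tested against each other.

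The spread differed between the subgroups too. Across CLO libraries the coefficient of variation was 21.3% to 41.4% for the 5 SET-domain genes and 3.92% to 13.7% for the core. Across control libraries it was 16.1% to 28.2% for the SET-domain genes and 3.82% to 16.2% for the core. CLO replicate 3 was the lowest library and CLO replicate 2 the second lowest in 5 of 5 SET-domain genes. Control replicate 2 was the highest in 5 of 5. This order was not particular to them. Averaged over the longest quintile of tested genes, the same libraries held these places (mean log2 deviations of -0.31, -0.15 and 0.29). The lists of other partners, other SET-domain enzymes and H3K4 readers, given below, had them too. In the demethylase list control replicate 3 was the highest.

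Averaged over the 5 SET-domain genes, the deviation from the mean of all 6 libraries was 0.06, -0.40 and -0.865 log2 units in CLO replicates 1, 2 and 3, against 0.26, 0.75 and 0.20 in control replicates 1, 2 and 3. Over the core subunits it was 0.02, 0.12 and 0.08 in CLO, against -0.11, -0.08 and -0.03 in control. The difference between these subgroups was 0.04, -0.53 and -0.94 log2 units in CLO and 0.38, 0.83 and 0.23 in control, so every CLO library had a lower balance of SET-domain over core transcripts. This is a description of the chosen members and was given no test.

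Gene length moved with the result. Each of the 5 SET-domain genes lies in the longest quintile of tested genes by deposited length (7597 bp and more), at 10647 bp for Kmt2e to 21055 bp for Kmt2d. In that quintile the median deposited length was 10056 bp, shorter than each of the 5. Its median log2 fold change was -0.25, and 20% of genes were lower at an unadjusted p under 0.05. Among 1609 protein-coding genes of at least 10000 bp the median was -0.31. Of these, 26.2% were lower at that level and 13.1% had a log2 fold change at or below that of Setd1b. Within the longest quintile, 3.25% of genes stood at or below Kmt2a, 4.15% at or below Kmt2e, 5.67% at or below Kmt2d, 5.89% at or below Kmt2c and 9.80% at or below Setd1b.

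Core subunits covered the length range. Dpy30 (1146 bp) lay in the shortest quintile, where the median log2 fold change was 0.27, and Wdr5 (3596 bp) in the middle one, with a median of -0.01. Rbbp5 (6910 bp) lay in the next, with a median of -0.10. Ash2l, at 9195 bp, lay in the longest quintile with the SET-domain genes, and 93.1% of genes there stood at or below its log2 fold change.

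When a smooth trend with length was taken out of each library, the 5 SET-domain genes still had lower values in CLO, but smaller ones. The log2 fold change was then -0.60 for Kmt2e, -0.55 for Kmt2a, -0.37 for Setd1b, -0.34 for Kmt2c and -0.32 for Kmt2d, with edgeR adjusted p-values of 0.464 to 0.511. In that fit 4 of the 5 were lower at an unadjusted p under 0.05, against 5.24% of all genes, and Setd1b was not. Ash2l stood at 0.36, higher at an unadjusted p of 0.0218 in edgeR's model (adjusted p = 0.464), and Dpy30 at -0.0172. The share of all genes higher at that level in this fit was not counted. How far gene length sets the difference was not tested.

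**Figure D3:**
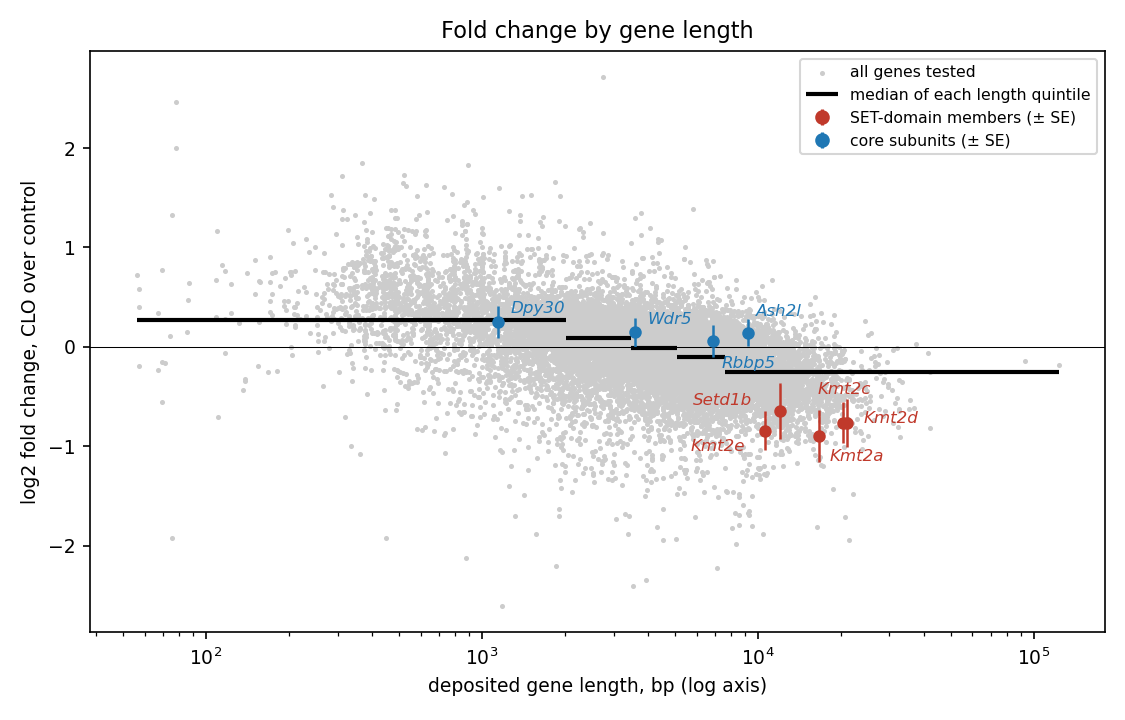
Log2 fold change (CLO over control) against deposited gene length in bp (log axis) for all 16129 tested genes (grey), with the median of each length quintile as a black line and the members with ± SE. The SET-domain genes lie below the longest quintile's median of -0.25, and Ash2l lies above it.

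Markers of tissue next to the hippocampus also differed between libraries. All 10 listed markers of neocortex were detected, and their summed level was 208, 170 and 154 CPM in CLO replicates 1, 2 and 3, against 303, 270 and 200 CPM in control replicates 1, 2 and 3. Across the CLO libraries this is the order of the SET-domain genes, and across the control libraries it is another order. The 6 markers of CA2 and CA3 neurons summed to 330 to 391 CPM in CLO and 200 to 279 CPM in control. General neuron markers summed to 5146 to 6302 CPM in CLO and 5230 to 7236 CPM in control, and astrocyte markers to 1268 to 1768 CPM in CLO and 1523 to 2274 CPM in control. In bulk tissue fewer cells of a type and less RNA per cell cannot be told apart.

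Control replicates 1 and 2 also stood apart by transcripts of spermatids, with 334 and 126 counts over 9 genes, against 2 to 6 counts in each other library. With control replicate 3 as the only control the log2 fold changes were -0.48 for Kmt2a, -0.54 for Kmt2c, -0.70 for Kmt2d, -0.57 for Kmt2e and -0.46 for Setd1b, values without a test. The part of tissue content in the difference was not tested.

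**Figure D4:**
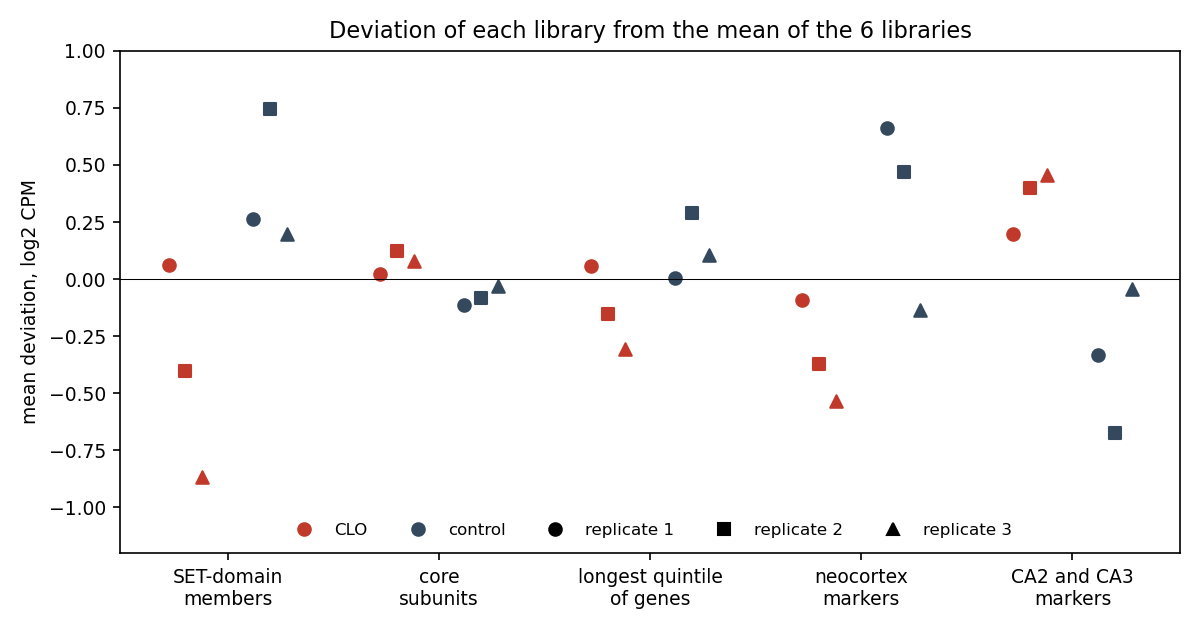
Mean deviation of each library (log2 CPM, relative to the mean of 6 libraries) for the 5 SET-domain genes, the 4 core subunits, the longest quintile of tested genes and the marker lists of neocortex and of CA2 and CA3 neurons, with CLO left of control. The SET-domain genes reach -0.865 in CLO replicate 3 and 0.75 in control replicate 2, where the longest quintile is at -0.31 and 0.29.

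Other partners of these complexes had values on each side of 0. Of the 16 listed, 15 were tested, 9 with lower and 6 with higher values, and 0 passed the adjusted threshold in edgeR or DESeq2. With no filter on low counts edgeR called 2 of them lower, Ncoa6 and Mga (adjusted p = 0.0102 and 0.0491), against 1.70% of all genes. The median log2 fold change was -0.09, against -0.01 over all genes tested. Ncoa6, a coactivator of the Kmt2c and Kmt2d complexes, was at 23.3 ± 7.81 CPM in CLO and 37.4 ± 10.5 CPM in control (log2 fold change -0.69). Mga, a MAX-binding factor found with a Kmt2a complex, was at 13.3 ± 4.75 CPM in CLO and 20.2 ± 4.68 CPM in control (-0.61). These were the 2 of the list lower at an unadjusted p under 0.05, 13.3% of it against 7.26% of all genes, and 0 were higher. Without CLO replicate 3 or without control replicate 2 neither was past that level, with values of -0.45 and -0.44 for Ncoa6 and -0.36 and -0.43 for Mga. With the length trend removed Mga was at -0.26 and not past it.

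Hcfc1, a subunit of the Kmt2a, Setd1a and Setd1b complexes, was at 48.5 ± 15.9 CPM in CLO and 67.7 ± 17.3 CPM in control (-0.48). Kmt2b, the closest paralog of Kmt2a and not among the 10 genes, was at 19.3 ± 5.18 CPM in CLO and 26.2 ± 6.64 CPM in control (-0.44; edgeR adjusted p = 0.416). Its deposited length is 9596 bp, and with the length trend removed its value was -0.22.

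Enzymes that remove the mark and their corepressors also had mostly lower values, as had long genes in general. Of 8 H3K4 demethylases and their corepressors, 6 had lower values, with a median of -0.26. These are 75% of the list, against 51.8% of all genes and 82.1% of the longest quintile. The list's median length, 6397.5 bp, lies in the quintile from 5095 to 7596 bp, where 66.9% had lower values. At an unadjusted p under 0.05, 1 was lower: 12.5%, against 7.26% of all genes, 8.25% of that quintile and 20% of the longest. That gene was Kdm5a, a demethylase of trimethylated H3K4, at 21.2 ± 1.74 CPM in CLO and 27.5 ± 0.863 CPM in control (-0.37; edgeR adjusted p = 0.334). With the length trend removed it was at -0.0372, and it was past that level in 2 of the 6 fits that left out 1 library. Kdm1b, Rcor1 and Kdm5c stood at -0.43, -0.44 and -0.32.

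Of 25 other SET-domain methyltransferases, which act mostly on other lysines, 20 had lower values, with a median of -0.12, and 4 were lower and 0 higher at an unadjusted p under 0.05. These 4 are 16% of the list, against 7.26% of all genes and 20% of the longest quintile. The list's median length, 6853 bp, lies in the next quintile (5095 to 7596 bp), where 8.25% were lower at that level. The count was 0 without CLO replicate 2, without CLO replicate 3, without control replicate 2 and with the length trend removed. Of all genes, 3.16%, 2.69%, 2.18% and 5.24% were lower at that level in these fits. The list's count was 9 without CLO replicate 1 and 8 without control replicate 1, where 12.1% of all genes were lower in each. Setd2, which methylates lysine 36 of histone H3, was at 19.4 ± 5.66 CPM in CLO and 28.8 ± 7.26 CPM in control (-0.57). Nsd1, another lysine 36 enzyme, stood at -0.52, Prdm2 at -0.44 and Smyd3 at -0.34. The adjusted threshold was passed by 0 of the 25 and by 0 of the demethylase list in edgeR, in DESeq2 and in edgeR with no filter.

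Of 20 readers of the H3K4 state 17 were tested, and all 17 had lower values, with a median of -0.27 and 2 past an unadjusted p of 0.05. These 2 are 11.8% of the list, against 7.26% of all genes and 20% of the longest quintile. In the quintile that holds the list's median length of 6501 bp, 8.25% were lower at that level. The adjusted threshold was passed by 0 in edgeR and DESeq2 and, with no filter on low counts, by 3 in edgeR: Bptf (adjusted p = 0.0333), Dnmt3a (0.0294) and Kat6a (0.0294). That fit tested 19 of the readers and called 1.70% of all genes lower. The 2 at the unadjusted level were Bptf, the PHD-finger subunit of a nucleosome remodeller, at 48.6 ± 15.6 CPM in CLO and 72.5 ± 16.2 CPM in control (-0.58), and Dnmt3a, whose ADD domain binds unmethylated H3K4, at 13.3 ± 5.37 CPM in CLO and 20.9 ± 5.25 CPM in control (-0.65). Neither was past it without CLO replicate 2, CLO replicate 3 or control replicate 2, or with the length trend removed. Kat6a stood at -0.63 and Phf2 at -0.48. Over all genes tested 51.8% had lower values, in the quintile of the list's median length 66.9%, and in the longest quintile 82.1%. With the length trend removed the medians were 0.02 for the other partners, 0.01 for the demethylase list, 0.03 for the other SET-domain enzymes and -0.11 for the readers.

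**Figure D5:**
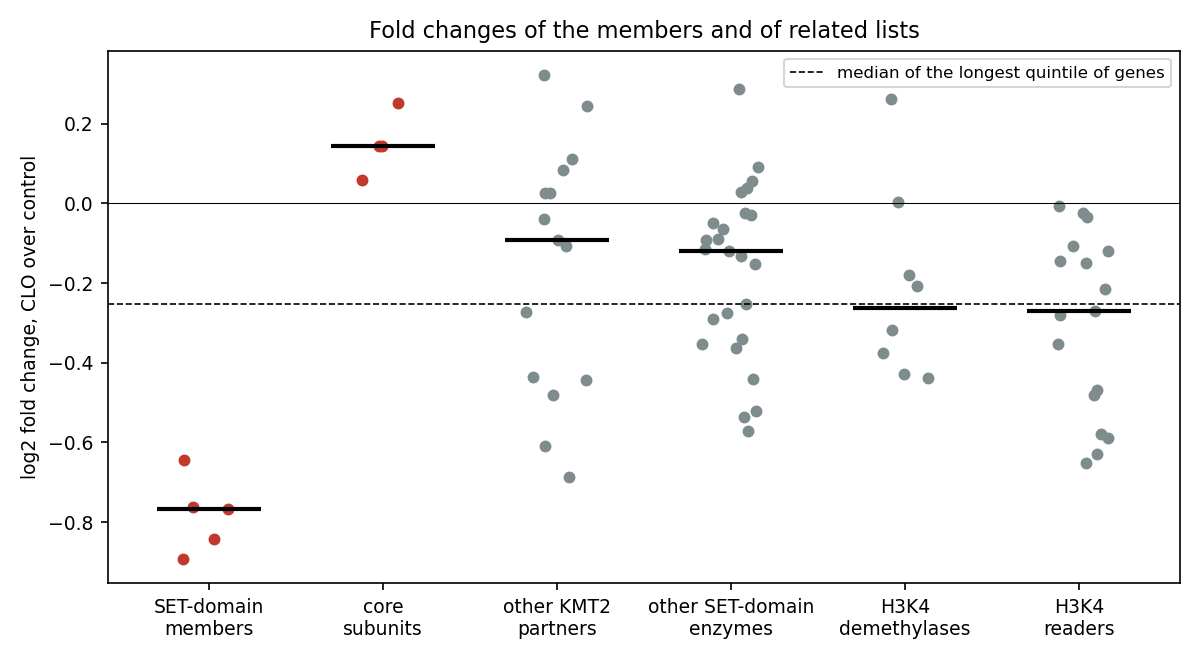
Log2 fold change (CLO over control) of each tested gene among the members and the 4 related lists, with the list median as a bar and the median of the longest quintile of genes, -0.25, as a dashed line. The 5 SET-domain genes lie between -0.89 and -0.64, and the 4 core subunits above 0.

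The genes whose library profile was most like the mean of the 5 SET-domain genes were ranked by Pearson r over the 6 libraries, among 10460 protein-coding genes with a mean of at least 5 CPM. The first 5 were Ankrd17, Gpr26, Arfgef3, Foxo3 and Atp2b4, with r from 0.997 to 0.998. Ankrd17 was at 68.6 ± 14.5 CPM in CLO and 99.1 ± 16.3 CPM in control (log2 fold change -0.53). Foxo3, a forkhead transcription factor, was at 41.6 ± 8.51 CPM in CLO and 60.0 ± 7.59 CPM in control (-0.53), and Atp2b4, a plasma membrane calcium pump, at 39.8 ± 17.0 CPM in CLO and 91.2 ± 36.3 CPM in control (-1.197). These values share the libraries, their depth and the group difference with the members, and the 5 genes have deposited lengths of 7747 to 35542 bp.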

How the data were processed

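Messenger RNA was sequenced in 6 hippocampal libraries, 3 per group. The deposited count table holds whole-number counts per gene, made by the authors with no normalization. Tools named in the submitters' processing notes, without role or order, are featureCounts 2.6.0, cutadapt 2.9 and HISAT2 2.2.0, with the build GRCm39. The deposited TPM values were recomputed from counts and deposited gene length to within 5e-04. The deposited gene lengths, starts and ends were used as given by the authors' table. The 1103 rows without an Ensembl identifier (0.640% to 0.780% of counts) were left out.

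The test was the robust quasi-likelihood test of edgeR 4.0.16 under R 4.3.3 (filterByExpr, TMM, no block, two-sided, Benjamini-Hochberg over 16129 genes, threshold 0.05). Standard errors come from the fold change and its F statistic, and intervals use its t distribution. Alternatives used DESeq2 1.42.0 and limma-voom (limma 3.58.1). Library deviations use log2 CPM with a prior count of 2. Scripts were tested on simulated data.

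The members and lists were chosen with earlier results of these data known. All 10 members are named. From each related list the 4 genes with the smallest p qualify, besides 5 genes of like profile. The mean SET-domain profile was taken over the 5 tested genes, since Setd1a was filtered out. Promoter windows are from RefSeq and biotypes from GENCODE M21, both on GRCm38.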

Additional observations from a re-analysis of the deposited data

How the results depend on the processing

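Under 14 other settings the 5 tested SET-domain genes had lower values in CLO in each. Their median log2 fold change, -0.77 with all libraries, was -0.37 with the length trend removed, and leaving out 1 library at a time gave values between -1.01 (CLO replicate 1 left out) and -0.58 (CLO replicate 3 left out). The number of members past the adjusted threshold, 0 by edgeR with all libraries, was 1 by DESeq2 and 5 with no filter on low counts, all lower, and 0 in the other settings that gave a test. Setd1b was not past an unadjusted p of 0.05 without CLO replicate 2 (log2 fold change -0.58), without CLO replicate 3 (-0.40) or without control replicate 2 (-0.39), and the other 4 were in each fit that gave a test. In the related lists the counts at that level were 0 without CLO replicate 3 and without control replicate 2. Only 2.69% and 2.18% of all genes were lower at it in these fits, against 7.26% with all libraries. Rbbp5 changed sign when 1 library was left out, with values from -0.0636 (control replicate 1) to 0.175 (control replicate 3), and was at -0.14 with control replicate 3 as the only control. With the length trend removed Dpy30 changed sign to -0.0172 and Ankrd17 to 0.0597. Over all genes the adjusted calls, 0 by edgeR, were 195 by DESeq2, 699 with no filter, 2 without control replicate 1 and 20 without control replicate 3. The cause of these changes was not tested.

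Replicate numbers are shared between the groups, but same-numbered libraries deviated together in 1 pair only (r of -0.157, -0.0948 and 0.277), so they were not taken as pairs. With the replicate block the median of the SET-domain genes was -0.79 and 0 members passed. The count of other SET-domain enzymes lower at the unadjusted level was 2, against 4 without it. Of all genes 6.71% were lower at that level with the block and 7.26% without it. With 3 libraries per group and 225 to 2161 counts per SET-domain gene and library, precision was limited by the spread between libraries.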
